A study of Mus musculus with 70 samples.

Results

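Alveolar type 1 cell genes were followed in the lungs of newborn mice that lack 1 of the 2 Capicua isoforms. The set holds 10 genes (Ager, Aqp5, Clic5, Cav1, Emp2, Pdpn, Akap5, Rtkn2, Hopx and Sema3e) of 50789 gene identifiers in the count table. They were taken by symbol as genes typical of this cell type and not by a cutoff on a measured value, but with earlier results of these data known. All 10 were found once each, and all 10 passed the filter on low counts in lung. Gene expression was measured by RNA sequencing of polyadenylated RNA in 70 samples from lung, cortex and cerebellum. The lungs came from mice at postnatal day 6, with 8 wild-type samples (WT), 8 samples from mice without the short isoform of Cic (Cic-S-KO) and 8 samples from mice without the long isoform (Cic-L-KO). The brain samples came from mice aged 12 weeks, with 8 WT, 7 Cic-S-KO and 8 Cic-L-KO samples in each of cortex and cerebellum. The WT mice were littermates of both knockout lines and were pooled into 1 control group, and the labels do not say which line each WT mouse came from. The labels give neither the alleles nor the sex of the mice, and they number the replicates of a group without stating that each is a separate animal, so p-values measure the spread between these samples.

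Alveolar type 1 cells are the thin, wide epithelial cells that line most of the gas-exchange surface of the lung and lie against the capillaries. They differ from alveolar type 2 cells, which are cuboidal, secrete surfactant and can give rise to type 1 cells, and both types spread and mature in the days around birth. Capicua is a transcriptional repressor that binds DNA through an HMG box, and its long and short isoforms are transcribed from alternative promoters.

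Lung libraries held 17798655 to 35523037 counts, cortex libraries 20730808 to 32548951 and cerebellum libraries 20440799 to 30464699, and each member had between 1096 and 48399 counts in every lung library. Cic itself, summed over its isoforms, was 138.5 ± 11.3 CPM (counts scaled to library size) in WT lung, 172 ± 10.5 without the short isoform and 134.9 ± 5.62 without the long one (mean ± SD, n = 8 each). These gene-level counts do not separate the isoforms, so they cannot check the loss of either one. Among lung libraries, Cic-S-KO replicate 5 stood apart in the summed level of 6 neuron markers. It held 48.5 CPM, against 2.57 to 6.15 CPM in the other libraries. Results of fits without this library are given for calls of the members, for the gene Vegfa and for the number of calls over all genes. Lung results for the other named genes and for the cell type lists are given only with it.

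The promoters of 4 members that passed the test in Cic-L-KO lung or between the knockouts are shown here, because Capicua acts at DNA. No annotated exon falls in these windows. Aqp5 passed as well, but 246 of the 250 bases of its window are annotated exon, so it is not shown. A further Hopx window, with all 250 bases in exons of Hopx or Hopxos, is not shown either. Both of these exonic windows are among the 11 searched for motifs below. Each line holds the 250 bases before a RefSeq transcript start on GRCm38.p6, 5′ to 3′ on the gene's own strand, for Ager (receptor for advanced glycation end products) at chr17:34597600-34597849 (plus strand), Hopx (a homeodomain cofactor) at chr5:77115124-77115373 (minus strand), Akap5 (a kinase anchoring protein) at chr12:76324641-76324890 (plus strand) and Emp2 (a tetraspan membrane protein) at chr16:10313969-10314218 (minus strand).
Ager: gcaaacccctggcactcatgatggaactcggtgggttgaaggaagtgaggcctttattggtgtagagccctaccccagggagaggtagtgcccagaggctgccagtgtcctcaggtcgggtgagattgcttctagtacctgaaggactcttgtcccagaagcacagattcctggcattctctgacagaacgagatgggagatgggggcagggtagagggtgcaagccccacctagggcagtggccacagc
Hopx: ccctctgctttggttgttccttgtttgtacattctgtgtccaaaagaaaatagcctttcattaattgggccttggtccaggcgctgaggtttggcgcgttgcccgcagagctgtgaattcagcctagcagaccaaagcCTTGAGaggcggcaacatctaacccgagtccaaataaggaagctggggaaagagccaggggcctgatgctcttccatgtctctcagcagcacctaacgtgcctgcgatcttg
Akap5: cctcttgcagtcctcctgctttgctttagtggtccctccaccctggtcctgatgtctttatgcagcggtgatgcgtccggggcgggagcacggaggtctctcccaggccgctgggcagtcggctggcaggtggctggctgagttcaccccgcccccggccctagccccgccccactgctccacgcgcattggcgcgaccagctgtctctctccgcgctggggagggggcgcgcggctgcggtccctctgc
Emp2: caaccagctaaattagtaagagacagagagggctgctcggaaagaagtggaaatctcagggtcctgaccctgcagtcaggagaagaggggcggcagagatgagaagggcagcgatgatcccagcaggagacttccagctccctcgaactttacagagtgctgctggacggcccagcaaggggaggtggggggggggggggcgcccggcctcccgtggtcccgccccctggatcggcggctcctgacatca
Capitals in the Hopx sequence mark the only match found among the members.

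RefSeq promoters matched 9 of the 10 members, with 11 windows between them, and no entry was found for Rtkn2. Words that Capicua is known to bind (TGAATGAA, TGAATGGA, TCAATGAA and TCAATGGA, searched on both strands) were in 0 of the 11 windows, against 3.19% of all 32851 RefSeq windows of the same 250 bases. The core of the TEAD motif (GGAATG, both strands) was in 0 of the 11, against 12.642% of all windows. The core of the NKX2-1 motif (CTCAAG, both strands) was in 1 of the 11, the Hopx window above, against 13.327% of all windows, and it is the CTTGAG in capitals, which starts 112 bases before the transcript start. None of these words overlaps another in the members' windows, and a window without a match says only that these letters are absent from it.

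In lungs without the long isoform, 4 of the 10 type 1 cell genes rose against WT and none fell: Hopx, Akap5, Aqp5 and Ager (edgeR quasi-likelihood test, Benjamini-Hochberg adjusted p under 0.05 over 16695 genes). The rises were between 1.16-fold and 1.38-fold. Over all genes tested in that comparison, 4.89% passed in either direction, 2.62% as higher and 2.28% as lower. Without the short isoform, 1 of the 10, Hopx, rose and none fell, where 15.7% of all genes passed, 9.99% as higher and 5.73% as lower. Between the knockouts, 5 of the 10 were lower in Cic-S-KO (Hopx, Emp2, Aqp5, Akap5 and Ager) and none was higher, where 12.2% of all genes passed, 7.31% as higher and 4.85% as lower. At an unadjusted p under 0.05, Cic-L-KO had no member below WT, Cic-S-KO had 1 below WT (Clic5), and between the knockouts 1 was higher in Cic-S-KO (Pdpn). With DESeq2 the calls were 1 higher in Cic-S-KO, 5 higher in Cic-L-KO and 5 lower between the knockouts, with none the other way. Over all 16695 genes DESeq2 called 3161, 1218 and 2432 in these comparisons, where edgeR called 2624, 817 and 2030. Without Cic-S-KO replicate 5, the library with neuron markers, 3 of the 10 passed between the knockouts (Hopx, Emp2 and Aqp5), and 1 and 4 passed against WT. Of all 16788 genes tested without that library, 1636 passed between the knockouts, and 2433 and 780 passed against WT. Both comparisons against WT use the same WT libraries, and both knockouts enter the third, so the 3 counts are not independent. In whole tissue, a change in the number of type 1 cells and a change in RNA per cell cannot be told apart.

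The median log2 fold change of the 10 members was 0.13 in Cic-L-KO against WT, beside -0.00093 over all genes tested. It was -0.01 in Cic-S-KO against WT, beside -0.0010 over all genes, and -0.16 between the knockouts, beside 0.0082 over all genes. The summed CPM of the 10 members ran from 4915 to 5762 (median 5540) in WT, from 5197 to 5718 (median 5390) in Cic-S-KO and from 5816 to 6291 (median 6023) in Cic-L-KO. The sum is led by Ager, Emp2 and Cav1, and on it every Cic-L-KO library lay above every library of the other groups.

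**Figure D1:**
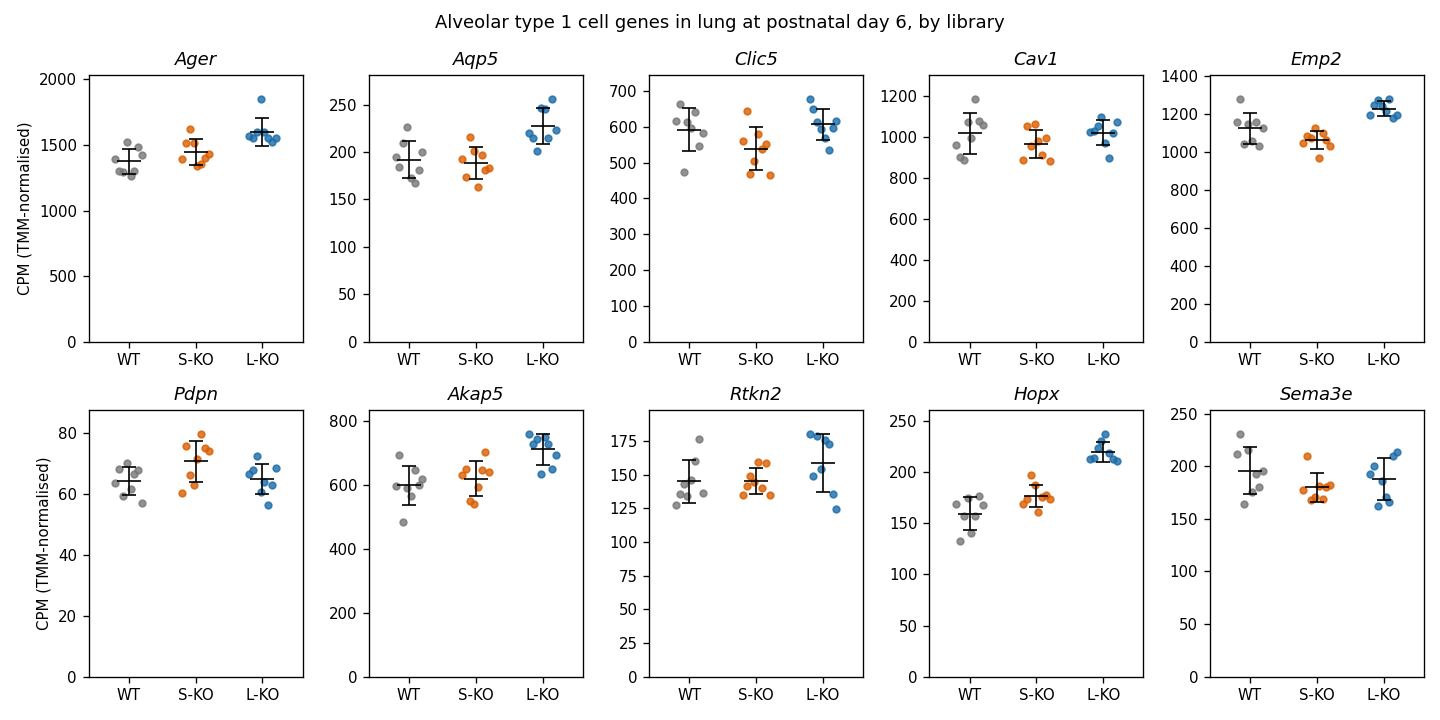
Level of each of the 10 type 1 cell genes in the 24 lung libraries, in CPM after TMM scaling (y axis, from 0), for WT, Cic-S-KO (S-KO) and Cic-L-KO (L-KO). Points are libraries, and black bars are the mean ± SD. Hopx and Ager are the panels in which all 8 Cic-L-KO libraries lie above all 8 WT libraries.

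Of the membrane genes, Ager, the receptor for advanced glycation end products, a surface protein that lung epithelium carries at a high level (ENSMUSG00000015452.14, chromosome 17, 34597862 to 34600936, GRCm38.p6), was at 1264, 1349 and 1524 CPM in WT lung (lowest, median and highest of 8). The Cic-S-KO libraries gave 1340, 1415 and 1622 CPM, and the Cic-L-KO libraries 1526, 1562 and 1849 CPM. The lowest Cic-L-KO library was thus just above the highest WT library, while the Cic-S-KO libraries spanned both. Ager rose 1.16-fold in Cic-L-KO (0.22 on the log2 scale, SE 0.0491, adjusted p = 0.0087). In Cic-S-KO its log2 fold change against WT was 0.07 (95% interval -0.03 to 0.17, adjusted p = 0.32). The knockouts differed by -0.15 (Cic-S-KO minus Cic-L-KO, adjusted p = 0.0497), a call that sat at the threshold and was lost without any one of 3 libraries: Cic-L-KO replicate 4 (adjusted p = 0.119), Cic-S-KO replicate 6 (0.102) or Cic-S-KO replicate 5 (0.0865). All p-values in this and the following paragraphs are from edgeR's quasi-likelihood test.

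Aqp5, the water channel of the apical membrane (ENSMUSG00000044217.17, chromosome 15, 99590782 to 99594829), was at 167, 189.5 and 227 CPM in WT, at 163, 188 and 216 CPM in Cic-S-KO and at 201, 222 and 256 CPM in Cic-L-KO. The groups overlapped, with 3 of 8 Cic-L-KO libraries above every WT library and all 8 above the WT mean. Aqp5 rose 1.19-fold in Cic-L-KO (log2 0.25, SE 0.0625, edgeR adjusted p = 0.02). This call was lost when each library's median deviation within bins of GC content was removed before the fit (log2 0.18, edgeR adjusted p = 0.0618). Cic-S-KO was 0.27 lower than Cic-L-KO on the log2 scale (adjusted p = 0.00429), and its difference from WT was -0.03 (interval -0.15 to 0.10). Clic5, a chloride intracellular channel protein that links the membrane to actin (ENSMUSG00000023959.8, chromosome 17, 44188584 to 44280172), was at 474, 605 and 664 CPM in WT, at 465.5, 544.6 and 643 CPM in Cic-S-KO and at 536, 606 and 678 CPM in Cic-L-KO. The 3 groups overlapped throughout, and no Clic5 comparison passed (log2 -0.14 in Cic-S-KO, 0.04 in Cic-L-KO and -0.17 between the knockouts, edgeR adjusted p = 0.16, 0.811 and 0.092). The last of these passed without Cic-S-KO replicate 2 (edgeR adjusted p = 0.0281). It also passed with the replicate number as a block (log2 -0.18, edgeR adjusted p = 0.0281), though the labels do not state that these numbers pair samples.

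Of the genes of caveolae and membrane domains, Cav1, the main caveola protein, which capillary endothelium also makes (ENSMUSG00000007655.16, chromosome 6, 17306335 to 17341452), was at 888, 1026 and 1184 CPM in WT, at 884, 967 and 1065 CPM in Cic-S-KO and at 897, 1026 and 1095 CPM in Cic-L-KO. The groups covered nearly the same range. Its log2 difference from WT was -0.07 in Cic-S-KO (interval -0.19 to 0.04) and 0.00 in Cic-L-KO (interval -0.11 to 0.12). Emp2, which organises caveolins and integrins at the surface (ENSMUSG00000022505.9, chromosome 16, 10281749 to 10313968), was at 1031, 1137 and 1278 CPM in WT, at 969, 1069 and 1129 CPM in Cic-S-KO and at 1178, 1228 and 1279 CPM in Cic-L-KO. Every Cic-S-KO library was below every Cic-L-KO library, and WT lay across both. The knockouts differed by -0.21 (log2, SE 0.0419, edgeR adjusted p = 0.0013). Against WT, Emp2 did not pass in Cic-L-KO (log2 0.13, adjusted p = 0.0758) or in Cic-S-KO (-0.08, adjusted p = 0.183), although all 8 Cic-L-KO libraries were above the WT mean. The Cic-L-KO value passed with DESeq2 (adjusted p = 0.0352). In edgeR it passed with each library's median deviation within bins of exon length removed (adjusted p = 0.029). With the replicate number as a block it passed as well (edgeR adjusted p = 0.0301).

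Pdpn, a mucin-like surface glycoprotein that mesothelium and lymphatic endothelium also carry (ENSMUSG00000028583.14, chromosome 4, 143267431 to 143299564), was at 57.1, 65.0 and 70.2 CPM in WT, at 60.4, 72.8 and 79.8 CPM in Cic-S-KO and at 56.5, 65.4 and 72.4 CPM in Cic-L-KO. WT and Cic-L-KO covered nearly the same range and Cic-S-KO reached higher. No Pdpn comparison passed, with log2 differences of 0.14 in Cic-S-KO (interval 0.02 to 0.26, edgeR adjusted p = 0.108) and 0.02 in Cic-L-KO (interval -0.11 to 0.14). Pdpn was the only one of the 10 members whose value between the knockouts was positive (0.12, adjusted p = 0.191).

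Of the signalling genes, Akap5, which anchors protein kinase A at the membrane (ENSMUSG00000021057.15, chromosome 12, 76324891 to 76334153), was at 482, 597 and 693 CPM in WT, at 539.8, 634 and 701 CPM in Cic-S-KO and at 633, 727 and 758 CPM in Cic-L-KO. In Cic-L-KO, 6 of 8 libraries were above every WT library. Akap5 rose 1.19-fold in Cic-L-KO (log2 0.25, SE 0.0609, edgeR adjusted p = 0.0171), while its difference in Cic-S-KO was 0.05 (interval -0.08 to 0.17). The knockouts differed by -0.20 (adjusted p = 0.0304), and without Cic-S-KO replicate 5 that value was -0.19 and no longer passed (adjusted p = 0.0543). Rtkn2 (ENSMUSG00000037846.18, chromosome 10, 67979570 to 68059740) was at 127, 139.8 and 177 CPM in WT, at 134.5, 143 and 159.5 CPM in Cic-S-KO and at 124, 163.5 and 180.3 CPM in Cic-L-KO. Libraries without the long isoform spread most widely and covered the whole WT range, and no Rtkn2 comparison passed (Cic-L-KO against WT log2 0.13, interval -0.02 to 0.28, edgeR adjusted p = 0.315).

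Hopx, a small homeodomain protein that does not itself bind DNA and works as a cofactor of serum response factor (ENSMUSG00000059325.14, chromosome 5, 77086988 to 77115121), gave the largest change of the 10 members. It was at 132.5, 163 and 177 CPM in WT, at 161, 175 and 197 CPM in Cic-S-KO and at 211, 216 and 238 CPM in Cic-L-KO. All 8 Cic-L-KO libraries were above every library of both other groups. Hopx rose 1.38-fold in Cic-L-KO (log2 0.46, SE 0.0518, interval 0.36 to 0.57, edgeR adjusted p = 1.48e-06), and Cic-S-KO was 0.31 lower than Cic-L-KO (adjusted p = 0.00023). In Cic-S-KO the rise over WT was 1.11-fold (log2 0.15, SE 0.0517, adjusted p = 0.0465), with 3 of 8 libraries above every WT library and all 8 above the WT mean. This smaller call was lost under several other settings, among them scaling by RLE size factors (edgeR adjusted p = 0.055) and leaving out Cic-S-KO replicate 2 (0.0627) or 6 (0.0697). It was also lost with each library's median deviation within bins of exon length removed (log2 0.03, edgeR adjusted p = 0.638).

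The Hopx gene shares 412 of its 1516 exon bases (27.2%) with an antisense gene, Hopxos, and Rtkn2 shares 216 of 5547 (3.9%) with the antisense gene Gm16212. Whether the counting used strand is not given in the sources used here, so reads from the shared bases may have been assigned to either gene or to neither. Hopxos, looked at after the values of Hopx were known, was at 1.68 ± 0.497 CPM in WT, 1.72 ± 0.478 CPM in Cic-S-KO and 1.88 ± 0.608 CPM in Cic-L-KO (mean ± SD, n = 8 each), and it did not pass in Cic-L-KO (edgeR adjusted p = 0.729).

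Sema3e, a secreted semaphorin that signals to endothelial plexin D1 (ENSMUSG00000063531.7, chromosome 5, 14025276 to 14256689), was at 164, 194 and 231 CPM in WT, at 168, 179 and 210.2 CPM in Cic-S-KO and at 162, 189 and 214 CPM in Cic-L-KO. The 3 groups overlapped, and no Sema3e comparison passed (log2 -0.12 in Cic-S-KO, -0.06 in Cic-L-KO and -0.06 between the knockouts, edgeR adjusted p = 0.213, 0.643 and 0.635). For the 9 members that did not pass in Cic-S-KO against WT, the 95% intervals reached no lower than -0.27, in Clic5, and no higher than 0.26, in Pdpn.

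Counting genes whose libraries did not overlap at all, 2 of the 10 members (Hopx and Ager) were separated between Cic-L-KO and WT, where 0.857% of all genes were. Between the knockouts 2 of the 10 (Hopx and Emp2) were separated, where 1.21% of all genes were, and between Cic-S-KO and WT none was, where 1.84% of all genes were.

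**Figure D2:**
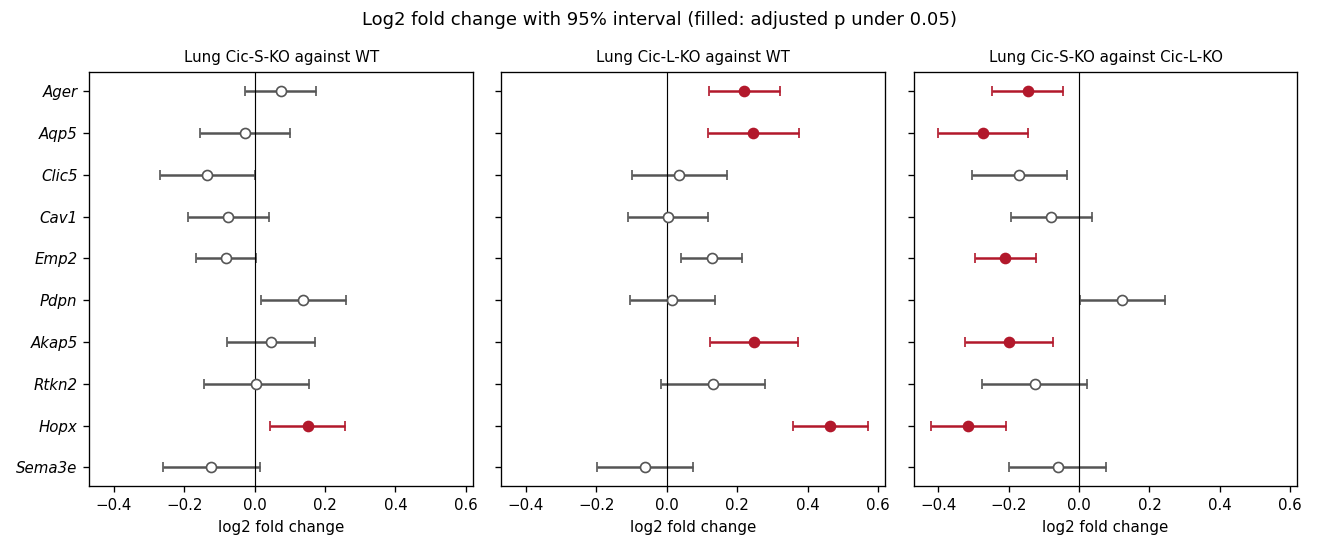
Log2 fold change of each member with its 95% interval (x axis) in the 3 lung comparisons, from the edgeR fit; filled symbols passed at an adjusted p under 0.05. Hopx, Ager, Aqp5 and Akap5 lie to the right of 0 in Cic-L-KO, while in Cic-S-KO most intervals include 0.

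Other genes of type 1 cells were taken from a separate list of 18 genes, of which 15 were in the table used and tested in lung. Beside the counts of this paragraph, 9.99% of all lung genes tested passed as higher and 5.73% as lower in Cic-S-KO. The shares were 2.62% and 2.28% in Cic-L-KO, and 7.31% and 4.85% between the knockouts. In Cic-L-KO 3 of the 15 rose and none fell (edgeR; 0 also at an unadjusted p under 0.05 and with DESeq2): Lmo7, an actin-binding junction protein (log2 0.41, edgeR adjusted p = 1.22e-06), Krt7, a simple-epithelium keratin (0.24, 0.00362), and Gprc5a, an orphan receptor (0.33, 0.0139). In Cic-S-KO 1 fell, Vegfa, which type 1 cells release to the capillaries (-0.17, 0.045), and none rose (2 at an unadjusted p under 0.05, and 1 with DESeq2). The Vegfa call was lost without Cic-S-KO replicate 5 or replicate 6. Between the knockouts 4 of the 15 were lower in Cic-S-KO, among them Lmo7 (-0.45, 3.18e-07) and the basement membrane protein gene Agrn (-0.20, 0.00488), and 1 was higher, Cyp2b10 (0.68, 0.00182). Of 12 regulators of type 1 cell fate none passed in Cic-L-KO (1 at an unadjusted p under 0.05, and 0 with DESeq2). In Cic-S-KO 1 rose, Nkx2-1, the lung lineage factor (0.15, 0.049), and 2 fell, the Hippo pathway coactivators Yap1 (-0.11, 0.0204) and Wwtr1 (-0.20, 0.0364), while DESeq2 called 4 of the 12 lower.

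Genes of neighbouring epithelial states were counted in the same way. Of 10 type 2 cell genes 2 rose in Cic-S-KO, the collectins Sftpd (log2 0.57, edgeR adjusted p = 0.00237) and Sftpa1 (0.35, 0.0113), and none passed in Cic-L-KO (0 also at an unadjusted p under 0.05 and with DESeq2), where Sftpc was at 0.02 (adjusted p = 0.898). Summed over the list, type 2 cell genes ran from 17800 to 22092 CPM in WT, 19422 to 25389 in Cic-S-KO and 18310 to 21595 in Cic-L-KO. Of 10 genes of the transitional state between type 2 and type 1 cells 7 rose in Cic-S-KO, led by Krt18 (0.37, 0.00058), Krt8 (0.34, 0.000617) and Lgals3 (1.00, 0.000425), and 2 rose in Cic-L-KO, Krt19 (0.38, 0.000604) and Areg (1.02, 0.00848), or 4 with DESeq2. At an unadjusted p under 0.05, 7 of the 10 transitional genes were higher than WT in each knockout. Several of these are also made by airway cells, mesothelium or macrophages. Krt18 is also on the list of pan-epithelial markers and Krt19 on that of mesothelium markers below, so the counts of these lists share genes.

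Markers of other cells moved with genotype as well. Over all lung genes tested, 9.99% passed as higher and 5.73% as lower in Cic-S-KO, and 2.62% and 2.28% in Cic-L-KO. Of the leukocyte markers, 8 of 9 rose in Cic-S-KO and 2 of 9 rose in Cic-L-KO (Csf1r and Cd52), or 5 at an unadjusted p under 0.05. The summed level of the leukocyte markers was 185.0 to 263 CPM in WT, 295.5 to 513 in Cic-S-KO and 229 to 310.4 in Cic-L-KO. Of the pan-epithelial markers, 7 of 7 rose in Cic-S-KO and 0 of 7 rose in Cic-L-KO (2 at an unadjusted p under 0.05, 1 with DESeq2), with sums of 595 to 716 CPM in WT, 737 to 833 in Cic-S-KO and 655 to 763 in Cic-L-KO. Of the markers of mesothelium, the cell layer on the lung surface, which also makes Pdpn, 5 of 5 rose in Cic-S-KO and 3 of 5 rose in Cic-L-KO (5 at an unadjusted p under 0.05, 5 with DESeq2), with sums of 268 to 445 CPM in WT, 416 to 585 in Cic-S-KO and 436 to 560.4 in Cic-L-KO. Of the airway markers, 3 of 6 rose in Cic-S-KO and 1 of 6 rose in Cic-L-KO, with sums of 3347 to 4720 CPM in WT, 4360 to 6473 in Cic-S-KO and 2788 to 4788 in Cic-L-KO. At an unadjusted p under 0.05, 2 airway markers were higher and 2 lower in Cic-L-KO, and the list's median log2 fold change there was -0.14. Of the endothelial markers, 5 of 10 fell in Cic-S-KO and none passed in Cic-L-KO (0 also at an unadjusted p under 0.05 and with DESeq2), with sums of 3940 to 4832 CPM in WT, 3288 to 4510 in Cic-S-KO and 3843 to 5116 in Cic-L-KO. The part of these cells in the values of Cav1, Pdpn, Hopx and the other members was not tested.

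**Figure D3:**
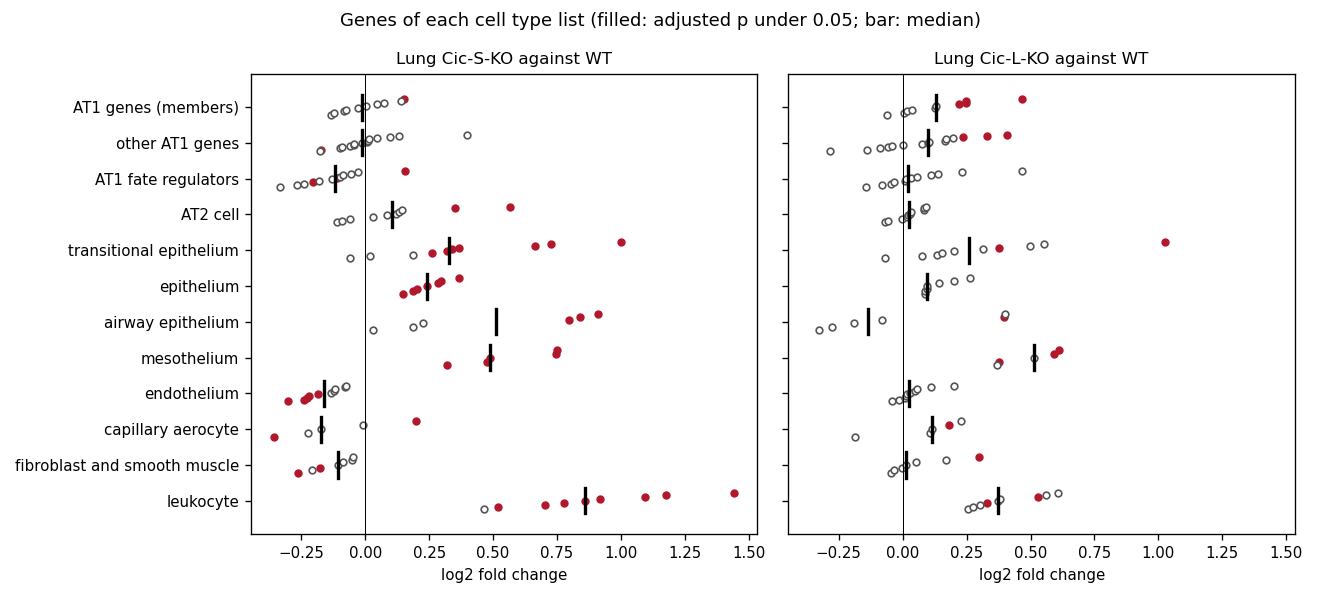
Log2 fold change (x axis) of every tested gene in each cell type list (y axis) for Cic-S-KO (left) and Cic-L-KO (right) against WT in lung; filled points passed at an adjusted p under 0.05 and black bars are list medians. The members' median is 0.13 in Cic-L-KO and -0.01 in Cic-S-KO. The leukocyte, mesothelium and epithelium lists lie to the right of 0 in both knockouts.

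From library to library, pairs of members varied in both the same and opposite directions. Over the 24 lung libraries, with the mean of each genotype removed, 28 of the 45 pairs had a positive Pearson's r, with a median of 0.077 and a range from -0.60 (Rtkn2 with Sema3e) to 0.75 (Ager with Hopx). The values are log2 CPM of the same libraries, so pairs share each library's composition. The permutations treat libraries of a genotype as exchangeable. However, a lung library correlated best with its own replicate number in 24 of 48 cases, where 6 are expected of unrelated numbers. Correlations with the replicate number removed were not computed, so the permutation p-values below may be too small. Ager and Hopx passed (r = 0.75, permutation p = 1e-05, the smallest that 100000 permutations within genotype can give, adjusted p = 0.00045 over 45 pairs; Spearman's coefficient 0.74, permutation p = 0.00023, adjusted 0.0103), and r was 0.76 without the 2 libraries farthest from the median of Ager. Clic5 and Sema3e passed as well (r = 0.66, permutation p = 0.00042, adjusted 0.00945; Spearman's coefficient 0.62, permutation p = 0.00184, adjusted 0.0414), with r at 0.50 without 2 libraries. No negative pair passed, and Rtkn2 with Sema3e had an adjusted permutation p of 0.0934. The 5 genes outside the set whose log2 CPM followed the members' mean most closely over the 24 libraries, among 16685 genes, were Gm48079 (r = 0.80), Isoc2b (0.75), Tmem80 (0.73), Fam174b (0.72) and Maoa (0.71), given as a description.

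**Figure D4:**
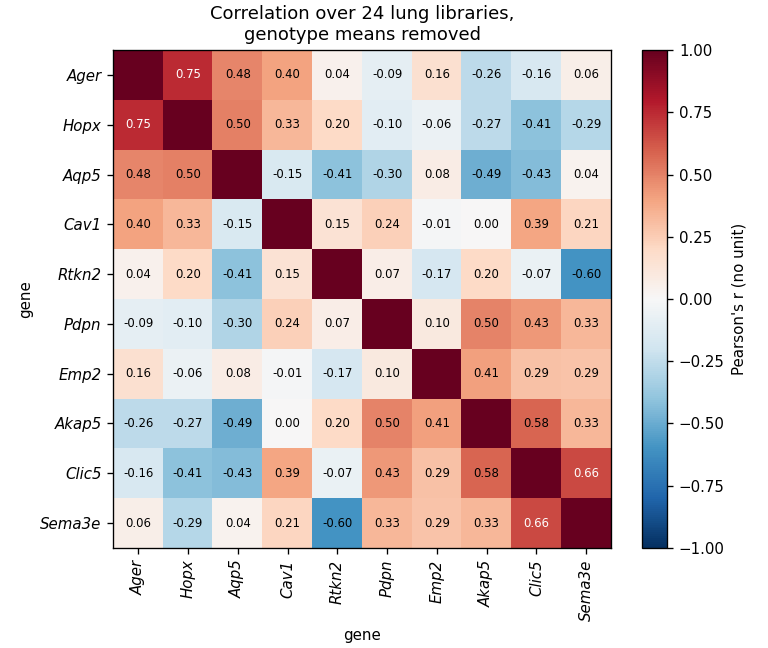
Pearson's r between each pair of members over 24 lung libraries after the genotype means were removed (colour scale, no unit; both axes list the 10 genes). Ager with Hopx (0.75) and Clic5 with Sema3e (0.66) are the pairs that passed.

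Per kilobase of exon, and scaled over all 70 libraries, Ager was the most abundant member in WT lung at 579 ± 38.3 CPM per kb (SD, n = 8), followed by Cav1 at 267 ± 25.8 and Emp2 at 118 ± 9.30. These 3 were separated from each other and from the rest in every WT library. Hopx (95.03), Akap5 (79.2), Aqp5 (66.7) and Clic5 (60.9 CPM per kb) came next, and neighbours in that order overlapped. Pdpn was at 32.0, Rtkn2 at 23.6 and Sema3e at 19.1 CPM per kb, and neighbours among these 3 overlapped at the ends of their ranges.

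As background, the same genes were measured in adult brain, where tissue, age and the batch label (1 for lung, 2 for brain) coincide and no test between tissues was made. In 9 of the 10 members all 24 lung libraries were above all 46 brain libraries, and for Hopx 23 of 24 were. The WT level in lung was 4591 times that in cortex for Ager, 885 times for Aqp5, 64.7 times for Cav1, 50.2 times for Clic5, 36.8 times for Rtkn2, 31.3 times for Emp2 and 7.46 times for Pdpn. The ratio was lowest for Hopx (6.78), Sema3e (3.50) and Akap5 (2.96), genes with known expression in brain cells. Against cerebellum the ratio was 1.72 for Hopx, 57.9 for Akap5 and 6.81 for Sema3e, so Hopx was closer to lung in cerebellum and Akap5 in cortex. Ager and Aqp5 had 1 to 41 counts per brain library.

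**Figure D5:**
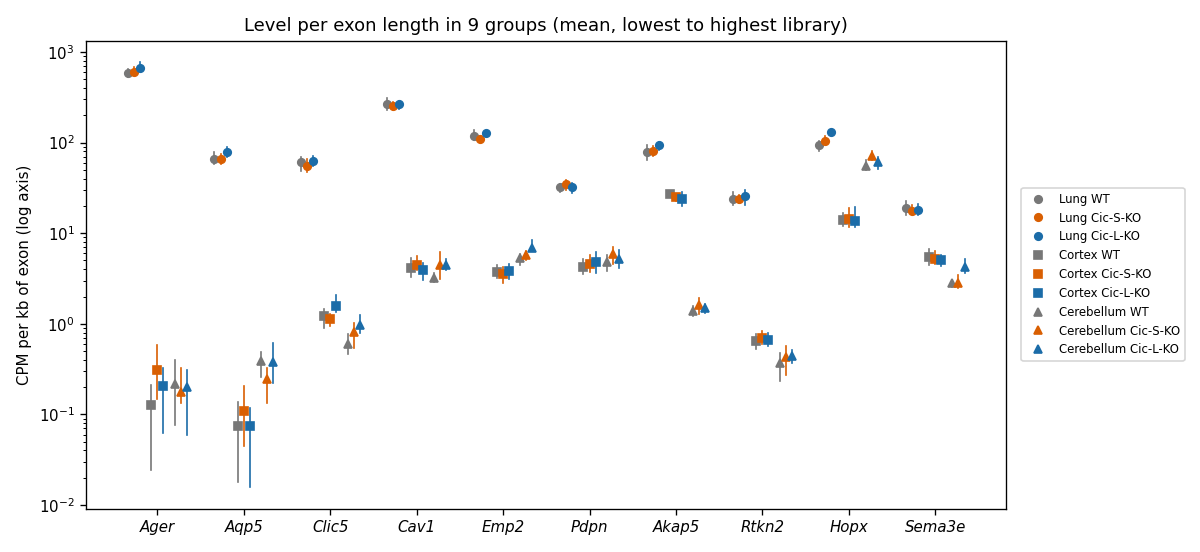
CPM per kilobase of exon (log axis) of the 10 members in all 9 groups; symbols are means and lines run from the lowest to the highest library. The means of the lung groups (circles) lie above cortex (squares) and cerebellum (triangles) for each gene, with the smallest gap in Hopx.

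In cerebellum all 10 members were tested. Of the 10, 4 rose in Cic-L-KO and none fell, where 21.5% of all genes passed (10.9% as higher, 10.6% as lower): Sema3e, Emp2, Clic5 and Cav1. Sema3e was at 23.3, 25.4 and 26.97 CPM in WT (lowest, median and highest of 8), 22.3, 24.02 and 32.2 in Cic-S-KO (of 7) and 33.6, 38.5 and 46.8 in Cic-L-KO (of 8), the last above all others. It rose 1.53-fold (log2 0.62, SE 0.0729, edgeR adjusted p = 1.57e-06). Clic5 rose 1.61-fold (0.69, SE 0.138, adjusted p = 0.000759), Cav1 1.37-fold (0.45, 0.00166) and Emp2 1.29-fold (0.37, 4.67e-05), and in each the Cic-L-KO and WT libraries did not overlap, as in 3.96% of all genes. Of the endothelial markers, 8 of 10 rose in the same samples, and their sum was 97.6 to 122 CPM in WT, 84.3 to 140.9 in Cic-S-KO and 158 to 178 in Cic-L-KO. Of the fibroblast and smooth muscle markers 6 of 6 tested rose there (sums of 71.4 to 92.5 CPM in WT and 97.6 to 120.3 in Cic-L-KO), as did 3 of 7 leukocyte markers (39.5 to 51.7 and 46.5 to 59.8 CPM) and 2 of 2 mesothelium markers (1.09 to 2.82 and 2.72 to 3.99 CPM). Of the neuron markers 4 of 6 fell and 1 rose (4860 to 5545 and 4444 to 4979 CPM). The part of these cell types in the rises of the 4 members was not tested.

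In Cic-S-KO cerebellum 5 of the 10 rose and none fell, where 8.23% of all genes passed (4.34% as higher, 3.89% as lower). Hopx was at 74.4, 79.5 and 95.5 CPM in WT and at 96.0, 105.7 and 120.5 in Cic-S-KO, with no overlap (as in 1.24% of all genes), and rose 1.29-fold (log2 0.37, SE 0.0602, edgeR adjusted p = 0.000645). Cav1 rose 1.40-fold (0.48, 0.00437), with 5 of 7 libraries above every WT library. The other calls were close to the threshold: Akap5 (0.26, adjusted p = 0.0468), Pdpn (0.32, 0.0474) and Clic5 (0.45, 0.0487). Between the knockouts, where 12.4% of all genes passed (6.06% as higher, 6.38% as lower), Hopx was higher in Cic-S-KO (0.22, 0.0161), and Sema3e (-0.58, 6.71e-06) and Emp2 (-0.29, 0.00165) were lower. Sema3e was the only member whose libraries did not overlap between the knockouts, as in 2.75% of all genes. In the Cic-S-KO samples 3 of 6 fibroblast and smooth muscle markers and 1 of 7 leukocyte markers rose against WT (sums of 77.0 to 115 and 42.9 to 60.6 CPM), no endothelial marker passed, and 4 of 6 neuron markers fell and 1 rose (4291 to 5012 CPM). Of the astrocyte markers 2 of 5 rose in Cic-S-KO (sums of 2447 to 3053 CPM in WT and 2636 to 3163 in Cic-S-KO). In Cic-L-KO 1 of the 5 rose and 2 fell. Between the knockouts 3 of the 5 were higher in Cic-S-KO and 1 was lower. Of the choroid plexus and meninges markers 2 of 6 rose against WT in each knockout. They varied widely among cerebellum libraries of each genotype, with sums of 55.9 to 2986 CPM in WT, 182 to 4119 in Cic-S-KO and 476 to 3276 in Cic-L-KO. The part of these cell types in the values of the members was not tested.

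In cortex 9 members were tested and Aqp5 was too low. In Cic-L-KO, where 43.2% of all genes passed (21.4% as higher, 21.9% as lower), Clic5 rose (log2 0.40, SE 0.0939, edgeR adjusted p = 0.00101) and Akap5 fell by 0.14 (adjusted p = 0.0228), the opposite sign to its value in lung. Akap5 was at 163, 166 and 171 CPM in WT cortex and at 125, 153 and 180.6 in Cic-L-KO, so the groups overlapped and the knockout libraries spread more widely. In the same samples 5 of 6 neuron markers fell (median log2 fold change -0.33), with sums of 7165 to 7842 CPM in WT and 5207 to 6043 in Cic-L-KO that did not overlap. Of the endothelial markers 4 of 10 rose, with sums of 104.7 to 166.5 CPM in WT and 132 to 188 in Cic-L-KO. The part of these cell types in the values of Akap5 and Clic5 was not tested. In Cic-S-KO cortex 2 of 6 neuron markers fell, and the sums of the 6 (6308 to 7020 CPM) also did not overlap those of WT. There 1 of 10 endothelial markers fell (median sum 116 CPM, against 131 in WT). Clic5 in Cic-S-KO was below every Cic-L-KO library (7.47 to 10.3 CPM against 11.1 to 16.9) and 0.50 lower (adjusted p = 0.000159), the only call of the 9 between the knockouts, where 33.9% of all genes passed (17.4% as higher, 16.5% as lower) and the libraries of 10.6% did not overlap. In Cic-S-KO against WT, where 6.53% of all genes passed (2.83% as higher, 3.7% as lower), Ager was the only call (log2 1.27, adjusted p = 0.0317), but it rested on 1 to 26 counts per library, at 0.247 ± 0.124 CPM in WT (n = 8) and 0.613 ± 0.299 CPM in Cic-S-KO (n = 7), and it was below the depth at which DESeq2 gave an adjusted p. Whether the responses of any member differed between lung and brain was not tested.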

How the data were processed

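Gene expression was measured by RNA sequencing. Per the labels' protocols, total RNA was taken from flash-frozen tissue with the miRNeasy Mini Kit and libraries were made by Azenta with polyA selection. Per the submitters' processing notes, STAR 2.7 and GRCm38.p6 were used; the counting program, annotation and strand setting are not given in the sources used here. The authors deposited raw counts per gene for all 70 samples in 1 table, and 0 of its columns of per-sample values lacked a sample. Identifiers were matched to GENCODE M21 (50725 of 50789 ignoring the version, 64 unmatched). Genes on chromosome 1 were not analysed here, among them the listed genes Igfbp2, Col4a3, Col4a4, Col3a1 and Ptprc.

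Each tissue was fitted with its 3 genotypes in edgeR 4.0.16 (R 4.3.3): filterByExpr (16695 genes in lung, 16974 in cortex, 16643 in cerebellum), TMM scaling, robust quasi-likelihood tests and Benjamini-Hochberg adjustment over all genes tested, with a threshold of 0.05. CPM are counts scaled to library size with TMM factors, and log2 CPM for correlations used a prior count of 2. Between 2 samples of a group, counts always differed by more than sampling noise (the lowest chi-square was 4.17 per degree of freedom), and 0 pairs were identical. The steps were tested on simulated data: for Cic-L-KO against WT in lung, 15 of 100 genes changed by 0.25 (log2) and 57 of 100 changed by 0.5 were called, with 4 false calls. The changed genes were drawn at random from all genes tested, low counts included, and all other genes were left unchanged. These rates therefore do not give the chance of a call for the members in the real comparison. Alternatives were DESeq2 1.42.0, RLE scaling, other filters, a replicate block, GC and exon length corrections, and leaving out single libraries, the last chosen after seeing the data. All members were named, and other lists were given by their counts with at most 4 examples by smallest p; Hopxos, Agrn and Cyp2b10 were named after their values were seen. The members and lists were chosen with earlier results of these data known.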

Additional observations from a re-analysis of the deposited data

Results flagged for a closer look

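Of 90 groups of member values (10 genes in 9 groups of 7 or 8 samples), 6 held 1 sample far from the others by Dixon's criterion, where chance gives about 1 in 20, or 4.5 groups. In lung, Ager was at 1849 CPM in Cic-L-KO replicate 4, against 1526 to 1602 CPM in the other 7, and Sema3e was at 210.2 CPM in Cic-S-KO replicate 2, against 168 to 182 CPM. In cortex, Cic-L-KO replicate 5 was high in both Clic5 (16.87 CPM, others 11.1 to 13.5) and Hopx (27.04 CPM, others 16.6 to 20.8). In cerebellum, Emp2 was at 70.37 CPM in Cic-L-KO replicate 1, against 53.7 to 59.5 CPM, and Ager at 0.689 CPM in Cic-S-KO replicate 5, against 0.283 to 0.375 CPM. Without Cic-L-KO replicate 4, the rise of Ager in Cic-L-KO lung was 0.19 on the log2 scale (edgeR adjusted p = 0.0215).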

How the results depend on the processing

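In lung, 392 of 420 member results by alternative kept their side of the threshold, 23 lost the call and 5 gained one. Where a call was involved, 0 changed direction. Values without a call could change sign, as for Ager in Cic-S-KO against WT (log2 -0.01 to 0.08) and Pdpn in Cic-L-KO against WT (-0.03 to 0.03). In Cic-L-KO against WT, Hopx (log2 0.41 to 0.49), Akap5 (0.24 to 0.28) and Ager (0.17 to 0.22) passed under all 13 alternatives that kept the same threshold. Requiring a log2 fold change of at least 0.5 took the members called to 0 in each lung comparison (from 1, 4 and 5), the other type 1 cell genes from 1 to 0 in Cic-S-KO against WT, from 3 to 0 in Cic-L-KO against WT and from 5 to 1 between the knockouts, and the members in brain from 2 to 0 and 1 to 0 in cortex (Cic-L-KO against WT and between the knockouts), and from 5 to 0, 4 to 2 and 3 to 1 in cerebellum (Cic-S-KO against WT, Cic-L-KO against WT and between the knockouts), by construction. The 1 member called in Cic-S-KO lung went to 0 with RLE scaling, with no low-count filter, with only the 2 genotypes compared and with exon length bins removed. The other type 1 cell genes called there went from 1 to 2 with DESeq2, with only the 2 genotypes compared, with GC bins removed and with exon length bins removed, and to 3 with a mean of at least 50 counts. In cortex, Ager in Cic-S-KO (1 member called) went to 0 with only the 2 genotypes compared, with GC bins removed and with a mean of at least 50 counts, where it was no longer tested, and DESeq2 gave it no adjusted p; in Cic-L-KO GC bins took 2 members to 1. In cerebellum the 5 members called in Cic-S-KO became 3 with no low-count filter and with a non-robust fit. Leaving out 1 lung library at a time (Cic-L-KO replicate 4, or Cic-S-KO replicate 2, 5 or 6) gave 0 to 1 members called in Cic-S-KO against WT, 4 in Cic-L-KO against WT and 3 to 6 between the knockouts. Except where the construction shows it, the cause was not tested.

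In lung, 16 of 24 same-numbered pairs of different genotypes had deviations that correlated above 0.1 (median 0.157, lowest -0.0531), and a library correlated best with its own number in 24 of 48 cases, where 6 are expected of unrelated numbers. This is a hint from the data, not from the design, that same-numbered lung libraries share something; as not every pair was above 0.1, the numbers were not taken as pairs. With a replicate block the calls over all genes rose in each lung comparison (2624 to 3339, 817 to 1285 and 2030 to 2552). Emp2 then passed in Cic-L-KO against WT (log2 0.13, edgeR adjusted p = 0.0301) and Clic5 between the knockouts (-0.18, adjusted p = 0.0281), and 3 other type 1 cell genes were called in Cic-S-KO lung. In brain the replicate and library numbers in the labels differ for 6 of the 7 Cic-S-KO samples of each tissue, so both were used, the library number as an alternative chosen after seeing the data. By replicate number, 8 of 22 pairs in cortex (median 0.0849) and 9 of 22 in cerebellum (0.0663) were above 0.1, with 11 and 6 of 44 best with their own number, and by library number 7 (0.0694) and 9 (0.0892), with 12 and 10 of 44. In Cic-S-KO cortex the block gave 0 members and 627 genes by replicate number, and 0 and 1121 by library number, where 1108 genes passed without it. In Cic-S-KO cerebellum it gave 3 members and 591 genes by replicate number, and 2 and 1001 by library number, in place of 5 and 1370. Counts over all genes also moved by over 1.5 times in Cic-S-KO cortex with no filter (732), only 2 genotypes (654) and GC bins (449), and at a log2 fold change of 0.5 in lung (959, 200 and 839 in place of 2624, 817 and 2030), cortex (147, 1931 and 1617 in place of 1108, 7338 and 5757) and cerebellum (176, 505 and 423 in place of 1370, 3580 and 2069). A member that did not pass may still differ by as much as its interval allows.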

Other observations

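Capillary cells that lie against type 1 cells were followed with 5 aerocyte genes, and 1 rose in both knockouts: Car4, a carbonic anhydrase of the capillary surface (log2 0.20 in Cic-S-KO, edgeR adjusted p = 0.00338, and 0.18 in Cic-L-KO, 0.0167). Fibin fell by 0.36 in Cic-S-KO (0.0105), and Ednrb, an endothelin receptor gene, differed between the knockouts (Cic-S-KO minus Cic-L-KO -0.29, 0.00682). The summed level of the 5 aerocyte genes was 445 to 563 CPM in WT, 400.2 to 518 in Cic-S-KO and 461 to 573 in Cic-L-KO. Over all lung genes tested, 15.7% passed in Cic-S-KO, 4.89% in Cic-L-KO and 12.2% between the knockouts, in either direction.

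Of 3 lymphatic endothelium genes, 2 fell in Cic-S-KO, Flt4 (log2 -0.32, edgeR adjusted p = 0.0173) and Lyve1 (-0.47, 0.0397), and none passed in Cic-L-KO (0 also at an unadjusted p under 0.05 and with DESeq2). Of 7 fibroblast and smooth muscle genes, 2 fell in Cic-S-KO, Myh11 (-0.26, 0.0287) and Acta2 (-0.18, 0.0442), and 1 rose in Cic-L-KO, the fibroblast receptor gene Pdgfra (0.30, 0.00818). Beside these counts, 5.73% of all lung genes tested passed as lower in Cic-S-KO and 2.62% as higher in Cic-L-KO.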
